A study of Homo sapiens with 38 samples.

Results

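The promoters of the nuclear genes for the mitochondrial ribosome and for respiratory complex I were followed through every antibody library of a CUT&RUN series on DPPA2 and DPPA4 in lung cancer cells. Members were the protein-coding genes of GENCODE 44 on chromosomes 1 to 22 whose name is MRPL or MRPS with a digit, or begins with NDUFA, NDUFB, NDUFC, NDUFS or NDUFV, which gave 124 genes among 19111 autosomal protein-coding genes. The 78 MRP genes comprised 49 for the large and 29 for the small ribosomal subunit. The 46 NDUF genes comprised 7 for core subunits of complex I, 29 for accessory subunits, 8 for assembly factors (NDUFAF) and the pair NDUFA4 and NDUFA4L2. NDUFA4 is now placed with complex IV, and NDUFC2-KCTD14 is a readthrough gene that shares the start of NDUFC2.

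The mitochondrial ribosome translates the few proteins that mitochondrial DNA encodes, all of them subunits of the complexes of oxidative phosphorylation, and its own proteins are encoded in the nucleus. Complex I oxidizes NADH and passes the electrons to ubiquinone while pumping protons. Both sets of genes are active in almost every cell type, and their promoters are mostly CpG islands bound by factors such as NRF1, GABPA and YY1. DPPA2 and DPPA4 are SAP domain proteins of the early embryo that act as a pair. RING1B is the E3 ligase that ubiquitinates histone H2A in Polycomb repressive complex 1, PCGF1 defines a variant form of that complex, MTF2 is a CpG-binding subunit of Polycomb repressive complex 2, and EP300 is a histone acetyltransferase.

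CUT&RUN sequences the chromatin that an antibody-tethered nuclease releases around a protein. The parental line H661 (NCI-H661), derived from a non-small cell lung cancer, makes DPPA2 and DPPA4 from its own genes. Untreated, it gave 4 libraries: 1 for DPPA2 and 3 for DPPA4, raised with the ab154642, N-terminal and central-region antibodies. H661 lines with integrated doxycycline-inducible hairpins against DPPA4 (shDPPA4) or against DPPA2 and DPPA4 (shDPPA2+4) received water or 2 µg/mL doxycycline for 7 days and had 7 libraries each. In these lines N-terminal DPPA4 and RING1B were profiled in both arms, while PCGF1, MTF2 and EP300 were profiled in the water arm. Both were sorted bulk populations, and a line with a non-targeting hairpin was not analysed here. H1299 (NCI-H1299), also of non-small cell lung cancer origin, carried inducible Flag-DPPA2 and V5-DPPA4. All 12 of its libraries came from cells on doxycycline for 7 days, from 6 antibodies with 2 replicates each, and uninduced cells were not analysed here. Of the 38 libraries of the series, 8 were IgG controls, and the other 30 each had a list of regions from MACS2 (narrow peaks) and from EPIC2 (broader domains built from bins of 100 bp). The lists hold no expression values, so the identity of the cells could not be checked against marker genes.

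A promoter was the transcription start site (TSS) ± 1500 bp, and it carried a protein when a region with a false discovery rate below 0.05 and a log2 fold over IgG above 1 touched it. Because these proteins favour CpG-rich promoters, each share of members is set beside the share among the 18987 other promoters weighted to the members' deciles of CpG observed/expected ratio (CpG-weighted share) and beside the share of all 19111 promoters. Exact (Clopper-Pearson) 95% intervals treat the 124 promoters as separate draws and cover only their number, not variation between cultures. The reads inside all EPIC2 domains of a library numbered 95640 at the lowest, for the Flag monoclonal in replicate 2 of H1299, and 7051994 at the highest, for MTF2 in water-treated shDPPA2+4 cells. H661 had 1 library per antibody and arm, so its differences have no replicate check and no p-value. Nothing in the labels ties the replicates of H1299 to separate cultures, so their p-values measure a spread between libraries that may be technical.

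In parental H661, MACS2 called both a DPPA2 and an N-terminal DPPA4 peak at 64 of 124 members (51.6%, 42.5–60.7%), beside a CpG-weighted share of 51.3% and 40.1% of all promoters. The difference was 0.32 percentage points. With promoters weighted by both CpG ratio and GC content (25 strata) it was 7.95 points, and with EPIC2 domains it was -2.46 points. Both moves were smaller than the half-width of the exact interval (9.10 points). DPPA2 alone was called at 9 members (7.26%, CpG-weighted 8.60%, all promoters 7.28%), DPPA4 alone at 15 (12.1%, 10.4% and 7.80%) and neither at 36 (29.0%, 29.7% and 44.8%). For MRP genes the count with both was 40 of 78 (51.3%, CpG-weighted 51.9%), and for NDUF genes 24 of 46 (52.2%, 50.3%). By role, 27 of 49 large-subunit genes, 13 of 29 small-subunit genes, 14 of 29 accessory-subunit genes, 6 of 8 assembly factors, 2 of 7 core-subunit genes and both genes of the NDUFA4 pair carried both proteins. The CpG-weighted share for the core-subunit genes was 52.6%, and the other roles have none beside them.

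Taken one antibody at a time, DPPA2 had a MACS2 peak at 73 members (58.9%, CpG-weighted 59.9%, all promoters 47.4%) and an EPIC2 domain at 81 (65.3%, 68.7% and 54.8%). N-terminal DPPA4 had a peak at 79 (63.7%, 61.7% and 47.9%) and a domain at 101 (81.5%, 72.1% and 56.3%). For ab154642 the counts were 87 peaks (70.2%, 66.1% and 51.6%) and 104 domains (83.9%, 73.5% and 57.7%). The central-region antibody gave fewer calls everywhere, with 12 peaks (9.68%, 7.49% and 5.64%) and 36 domains (29.0%, 30.1% and 23.1%). Thus the members exceeded the CpG-weighted share by 9.36 and 10.3 percentage points in domains of the N-terminal and ab154642 antibodies, whereas the excess in peaks of these antibodies was 2.01 and 4.04 points and the DPPA2 antibody showed none by either caller.

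**Figure D1:**
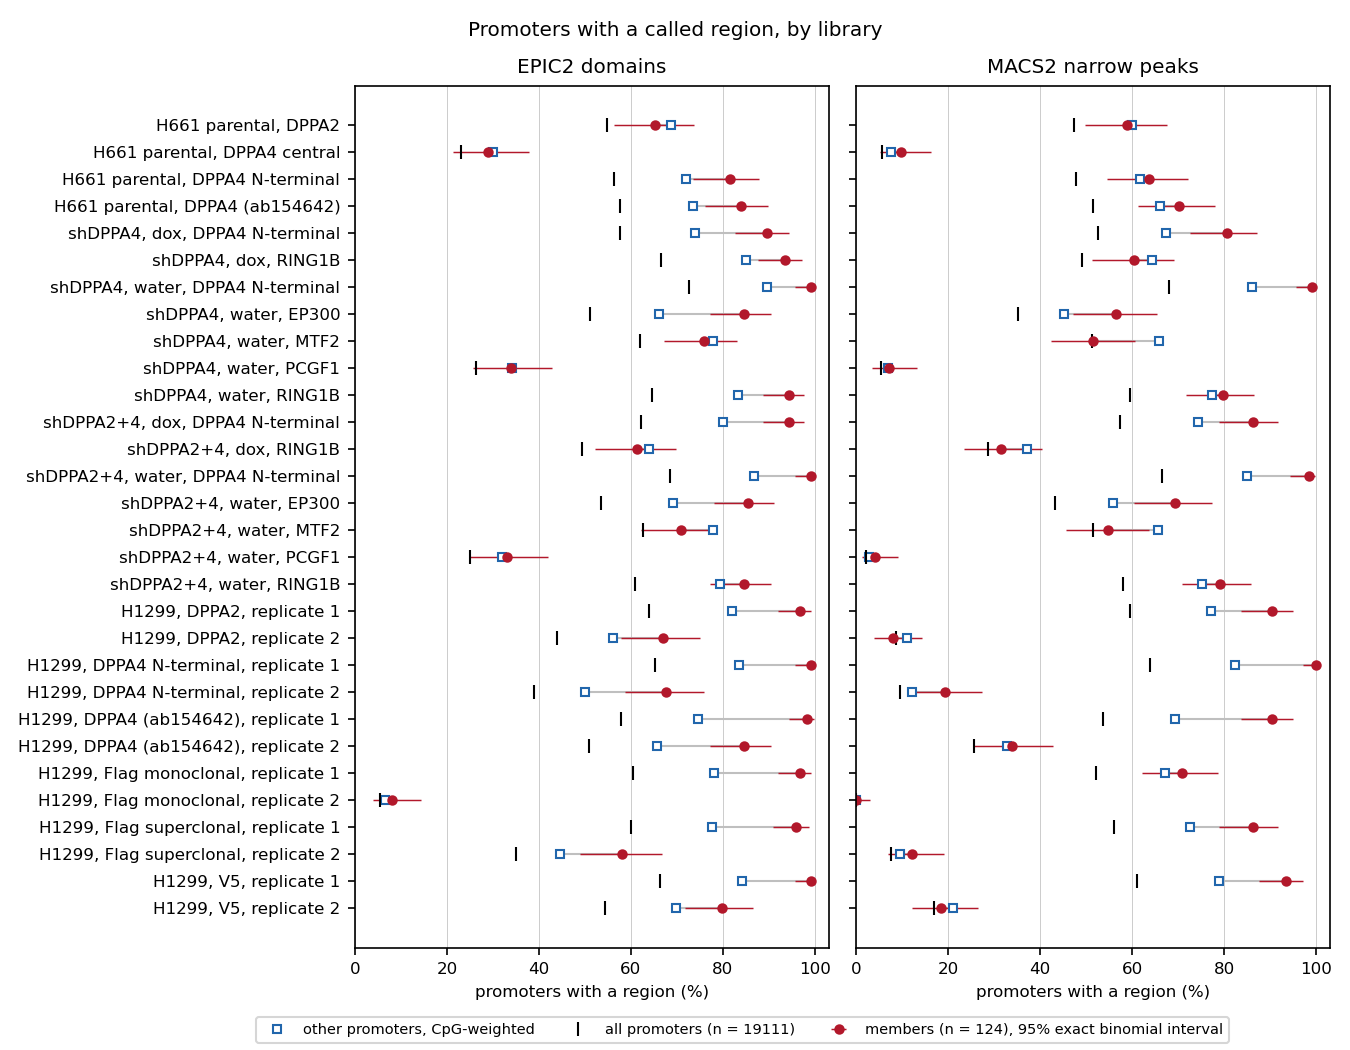
Percentage of promoters with a region (horizontal axes) in each of 30 libraries (rows), for EPIC2 domains (left) and MACS2 peaks (right). Red points are the 124 members with exact 95% intervals, open squares the CpG-weighted other promoters and black ticks all 19111 promoters. The members lie to the right of the squares for DPPA4 in the water-treated hairpin lines, for EP300 and for H1299 replicate 1, and to the left of them for MTF2.

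The members with the strongest paired peaks in H661 were ordered by the smaller of the DPPA2 and N-terminal DPPA4 folds over background. MRPL18, a large-subunit protein, came first with folds of 15.7 for DPPA2, 16.3 for N-terminal DPPA4, 20.5 for ab154642 and 7.36 for the central-region antibody. Its DPPA2 peak lay on chromosome 6 at 159789538 to 159790329 (hg38), with the summit upstream of the TSS (position -477 bp), in a window that also holds the start of TCP1, a chaperonin subunit. MRPS12, a small-subunit protein of the decoding centre, had 15.2, 20.7, 15.9 and 6.49 in the same order. All 4 antibodies thus found both genes, with the central-region antibody lowest at each. The MRPS12 peak, on chromosome 19 at 38929970 to 38931144, covered the TSS. It also covered the start of SARS2, the mitochondrial seryl-tRNA synthetase, which lies 181 bp from that TSS.

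MRPL36, a large-subunit protein, and NDUFS6, an accessory subunit of complex I, shared their peaks. Their starts lie 1570 bp apart, and 1 DPPA2 peak on chromosome 5 at 1799988 to 1801683 (14.4-fold) and 1 DPPA4 peak at 1799401 to 1801883 (14.6-fold) served both windows. The summits lay upstream of both starts, nearer to NDUFS6 (-416 and -598 bp) than to MRPL36 (-1154 and -972 bp). NDUFB2, NDUFB3, MRPL54, MRPL57, MRPS28 and MRPL34 completed the 10 strongest, with DPPA2 folds between 10.2 (MRPL34) and 10.8 (NDUFB2) and N-terminal DPPA4 folds between 11.4 (MRPL34) and 22.2 (MRPL54). Over the 64 members with both peaks the smaller fold ranged from 3.51 to 15.7, with a median of 6.04.

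**Figure D2:**
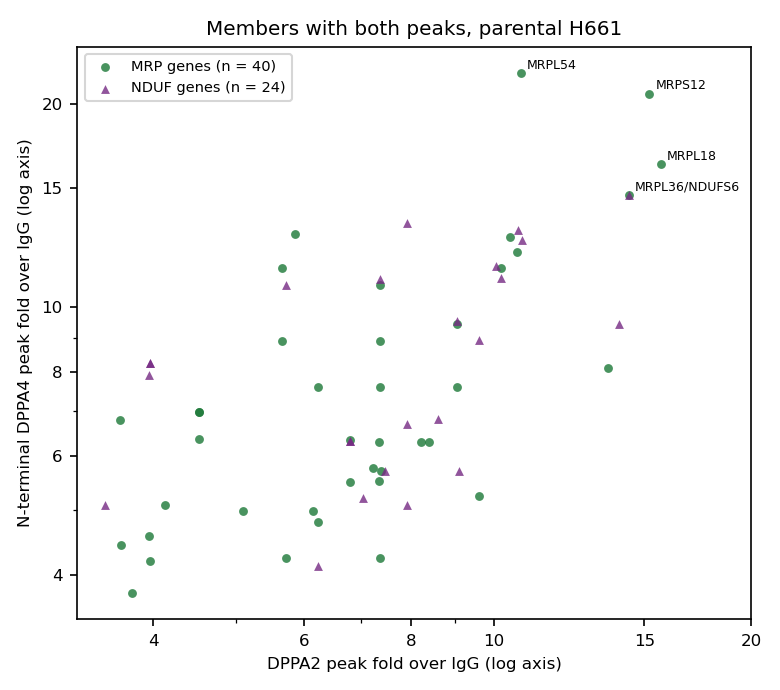
Peak fold over background for DPPA2 (horizontal, log axis) and N-terminal DPPA4 (vertical, log axis) at the 64 members with both peaks in parental H661, 40 MRP genes (circles) and 24 NDUF genes (triangles), from 1 library per antibody. MRPS12, MRPL18 and the shared MRPL36 and NDUFS6 promoter stand at the upper right, and MRPL54 has the highest DPPA4 fold (22.2).

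At the other end, 7 members had no region of DPPA2 or DPPA4 by any antibody or caller in parental H661. They were MRPL3, MRPL23 and MRPS17 of the ribosome and the complex I accessory genes NDUFA7, NDUFA10, NDUFB4 and NDUFB8. NDUFB4 nevertheless had DPPA4 domains in both water-treated hairpin lines, with 76 reads over 4 IgG reads in shDPPA4 and 39 over 2 in shDPPA2+4, and domains in 11 of 12 H1299 libraries. MRPL23 had no EPIC2 domain of any protein in the 10 water libraries and domains in 2 H1299 libraries, those of DPPA2 and V5 in replicate 1. MACS2 nevertheless called an N-terminal DPPA4 peak at MRPL23 in both water-treated lines, with folds of 8.42 in shDPPA4 and 10.6 in shDPPA2+4, and in H1299 replicate 1 (8.10). By contrast, 12 members were called in all 8 parental lists (4 antibodies and 2 callers), among them MRPL18, MRPL34, MRPS12, NDUFA11, NDUFA13 and NDUFB3. The counts of members in none or all of the parental lists have no share of other promoters beside them. They therefore describe the members alone.

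To show the DNA behind these extremes, the promoters of 4 of the 10 strongest and of 4 of the 7 without a region are printed 5′ to 3′ from RefSeq (GRCh38.p14), from 250 bases upstream to 30 bases into the transcript. RefSeq and GENCODE starts coincided for these genes except NDUFB8, where they differed by 52 bp. Capitals mark exact matches, on either strand, to short cores of factors known for mitochondrial genes, described further on. The strongly occupied promoters were those of MRPS12 (chr19:38930694-38930973, plus strand), MRPL54 (chr19:3762432-3762711, plus), NDUFB2 (chr7:140696458-140696737, plus) and NDUFB3 (chr2:201071751-201072030, plus), as follows.
MRPS12: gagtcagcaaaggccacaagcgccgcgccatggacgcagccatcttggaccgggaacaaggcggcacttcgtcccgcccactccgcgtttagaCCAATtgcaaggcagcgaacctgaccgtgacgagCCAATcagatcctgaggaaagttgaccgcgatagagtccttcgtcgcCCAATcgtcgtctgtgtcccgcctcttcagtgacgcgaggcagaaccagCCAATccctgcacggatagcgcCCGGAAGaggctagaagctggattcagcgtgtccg
MRPL54: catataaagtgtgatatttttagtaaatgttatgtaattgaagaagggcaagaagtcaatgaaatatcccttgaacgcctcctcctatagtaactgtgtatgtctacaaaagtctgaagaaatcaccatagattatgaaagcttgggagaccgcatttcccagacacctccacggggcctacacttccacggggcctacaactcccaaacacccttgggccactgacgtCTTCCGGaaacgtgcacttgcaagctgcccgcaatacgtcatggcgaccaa
NDUFB2: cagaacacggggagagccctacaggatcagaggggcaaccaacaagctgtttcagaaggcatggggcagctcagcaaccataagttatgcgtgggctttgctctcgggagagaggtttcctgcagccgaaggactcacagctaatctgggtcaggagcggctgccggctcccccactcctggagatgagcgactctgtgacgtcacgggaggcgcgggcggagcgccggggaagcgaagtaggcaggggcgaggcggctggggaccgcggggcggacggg
NDUFB3: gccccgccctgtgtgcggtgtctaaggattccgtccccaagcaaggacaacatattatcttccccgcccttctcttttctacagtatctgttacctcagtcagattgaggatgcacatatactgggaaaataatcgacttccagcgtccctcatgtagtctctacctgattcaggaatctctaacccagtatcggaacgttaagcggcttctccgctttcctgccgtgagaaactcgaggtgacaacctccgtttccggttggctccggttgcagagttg
The promoters without a region in parental H661 were those of MRPS17 (chr7:55951627-55951906, plus strand), NDUFA7 (chr19:8321346-8321625, minus), NDUFB4 (chr3:120596086-120596365, plus) and NDUFB8 (chr10:100529894-100530173, minus).
MRPS17: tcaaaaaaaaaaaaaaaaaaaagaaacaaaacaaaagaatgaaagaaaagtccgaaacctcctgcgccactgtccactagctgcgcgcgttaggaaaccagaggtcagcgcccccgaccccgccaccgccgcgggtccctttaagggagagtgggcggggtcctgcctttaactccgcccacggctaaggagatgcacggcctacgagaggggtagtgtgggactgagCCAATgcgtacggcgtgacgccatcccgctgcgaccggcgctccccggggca
NDUFA7: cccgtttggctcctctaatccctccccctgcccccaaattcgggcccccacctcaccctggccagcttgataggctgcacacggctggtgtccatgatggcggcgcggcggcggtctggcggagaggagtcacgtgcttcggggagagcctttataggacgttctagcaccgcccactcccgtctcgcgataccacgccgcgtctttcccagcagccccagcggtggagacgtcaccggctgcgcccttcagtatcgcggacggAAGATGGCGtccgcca
NDUFB4: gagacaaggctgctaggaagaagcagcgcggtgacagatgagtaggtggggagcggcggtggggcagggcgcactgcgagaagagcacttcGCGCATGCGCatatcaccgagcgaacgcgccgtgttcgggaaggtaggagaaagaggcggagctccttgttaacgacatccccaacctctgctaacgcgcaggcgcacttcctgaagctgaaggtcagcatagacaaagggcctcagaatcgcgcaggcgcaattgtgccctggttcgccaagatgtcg
NDUFB8: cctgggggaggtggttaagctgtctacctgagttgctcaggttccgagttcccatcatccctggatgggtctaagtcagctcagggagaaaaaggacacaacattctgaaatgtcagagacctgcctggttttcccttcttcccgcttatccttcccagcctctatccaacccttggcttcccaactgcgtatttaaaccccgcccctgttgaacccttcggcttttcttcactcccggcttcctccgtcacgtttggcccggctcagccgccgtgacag
MRPS12 held 4 CCAAT boxes and 1 ETS core, MRPL54 held 1 ETS core, and NDUFB4 held an NRF1 core read on both strands in a run of 10 bases. NDUFB2, NDUFB3 and NDUFB8 held no match, so that neither set was marked by one motif.

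In H1299 with induced DPPA2 and DPPA4, nearly every member was called in replicate 1 and fewer in replicate 2. DPPA2 and N-terminal DPPA4 domains were both present at 119 members (96.0%, CpG-weighted 80.6%, all promoters 62.5%) in replicate 1 and at 65 (52.4%, 40.7% and 31.8%) in replicate 2. Both proteins in both replicates were found at 63 members (50.8%, 41.7–59.9%), beside a CpG-weighted 40.7% and 31.8% of all promoters. The excess over the CpG-weighted share was 15.3 percentage points in replicate 1, 11.7 in replicate 2 and 10.1 when both were required. With MACS2 peaks, of which replicate 2 had few, it was 1.14 points, and at members without a second start in the window 6.05 points.

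In replicate 1 the EPIC2 counts of members lay close together across antibodies. They were 120 for DPPA2 (CpG-weighted 82.1%, all promoters 63.9%), 120 for the Flag monoclonal (78.1% and 60.5%), 119 for the Flag superclonal (77.5% and 60.1%), 123 for N-terminal DPPA4 (83.5% and 65.3%), 122 for ab154642 (74.6% and 57.8%) and 123 for V5 (84.2% and 66.3%). All 6 antibodies found a domain at 115 members (92.7%), beside a CpG-weighted 71.5%. Replicate 2 was more uneven, with 83 members for DPPA2 (CpG-weighted 56.1%, all promoters 43.9%), 10 for the Flag monoclonal (6.62% and 5.50%), 72 for the Flag superclonal (44.6% and 35.0%), 84 for N-terminal DPPA4 (50.1% and 38.9%), 105 for ab154642 (65.6% and 51.0%) and 99 for V5 (69.9% and 54.5%). Fewer reads lay inside the domains in replicate 2 for every antibody, but by the offsets of the deposited log2 folds (log2 IgG over library size, with 1 IgG library per antibody species) its libraries were the larger for DPPA2 (-1.56 against -1.20), the Flag monoclonal (-1.64 against -1.47) and V5 (-2.09 against -1.56). In all 12 EPIC2 lists the members' share lay above the CpG-weighted share, by between 1.44 points (Flag monoclonal, replicate 2) and 23.7 points (ab154642, replicate 1).

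MACS2 peaks in replicate 1 were present at 112 members for DPPA2 (all promoters 59.6%), 88 for the Flag monoclonal (52.1%), 107 for the Flag superclonal (56.0%), 124 for N-terminal DPPA4 (63.9%), 112 for ab154642 (53.6%) and 116 for V5 (61.0%). In replicate 2 the peaks fell to 10 (8.76%), 0 (0%), 15 (7.60%), 24 (9.52%), 42 (25.6%) and 23 (16.8%) members in the same order. At such low calling the members did not always exceed the CpG-weighted share, which was 11.0% for DPPA2 and 21.0% for V5 against 8.06% and 18.5% of members.

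Antibodies to DPPA2 or its tag found fewer members than antibodies to DPPA4 or its tag. The mean share was 70.4% ± 34.9 (SD, n = 6 libraries) for the former and 88.2% ± 13.01 (SD, n = 6) for the latter, a difference of -17.7 percentage points that an exact two-sided permutation test over the libraries did not separate (p = 0.281, smallest possible p = 0.00216). With the replicate number as a block the exact permutation p was 0.005, and without the Flag monoclonal antibody the blocked exact p was 0.09, with a difference of -8.74 points. These blocks treat the 2 libraries of an antibody as independent, although the target is a property of the antibody. Over the means of the 6 antibodies the exact permutation p was 0.1, the smallest possible. After subtraction of the CpG-weighted share the difference was -3.93 points and the blocked exact permutation p was 0.18.

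Complex I accessory genes led the members by strength in H1299. NDUFV3 had 171 reads over 3 IgG reads (DPPA2, replicate 1), 70 over 1 (DPPA2, replicate 2), 266 over 4 (N-terminal DPPA4, replicate 1) and 25 over 1 (replicate 2). Its lowest log2 fold over these 4 libraries was 4.57, the highest such value of any member. NDUFA9, which binds NADPH at the junction of the arms of complex I, followed with 134 over 2, 54 over 1, 135 over 3 and 42 over 2. Both genes were found in all 12 H1299 libraries, as were MRPL36, MRPL41, MRPL51, MRPS18B, MRPS33, MRPS34 and NDUFS6. NDUFA8, MRPL20 and MRPL37 were next, though their replicate 2 domains held only 8 to 14 reads over 0 or 1 IgG reads. No member was without a domain in every H1299 list, and 7 had 6 domains or fewer of 12, namely MRPL23 (2), NDUFB8 (3), MRPS17 (5) and MRPL42, MRPS14, MRPS31 and NDUFS7 (6 each). These counts over the 12 libraries have no share of other promoters beside them. Single libraries of replicate 1 already gave CpG-weighted shares of 74.6% (ab154642) to 84.2% (V5), so the counts do not set the members apart.

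The H661 and H1299 sets overlapped at 45 members, which is 70.3% of the 64 in H661 and 71.4% of the 63 in H1299. For all promoters the same overlap was 59.9% of the H661 set and 75.5% of the H1299 set, or 24.0% of all promoters. The members in both cell lines comprised 25 of 78 MRP genes and 20 of 46 NDUF genes. NDUF genes with both proteins in both H1299 replicates numbered 28 (60.9%, CpG-weighted 39.6%) and MRP genes 35 (44.9%, CpG-weighted 41.3%).

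In the water-treated hairpin lines, which still make DPPA4, N-terminal DPPA4 domains were present at 123 of 124 members in each line, and EPIC2 missed MRPL23 in both. The CpG-weighted shares were 89.6% in shDPPA4 and 86.9% in shDPPA2+4, and the shares of all promoters 72.7% and 68.6%. MACS2 missed MRPL3 in both lines and NDUFA10 in shDPPA2+4 but found MRPL23, and gave 123 and 122 members, beside CpG-weighted 86.1% and 84.9% and 68.1% and 66.5% of all promoters. Member domains held more reads here than in parental H661, with a median of 151 and 74 reads per member domain over a median of 6 and 7 IgG reads, against 20 reads over 2 for the same antibody in parental cells.

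RING1B accompanied DPPA4 at most members. Its domains were present at 117 members in shDPPA4 water (94.4%, CpG-weighted 83.3%, all promoters 64.6%) and at 105 in shDPPA2+4 water (84.7%, 79.4% and 60.8%). By MACS2 the counts were 99 (79.8%, 77.3% and 59.5%) and 98 (79.0%, 75.2% and 58.0%), so the excess was smaller with that caller, and with domains above a log2 fold of 2 its mean was 2.39 points. In both lines 102 members carried a domain (82.3%, CpG-weighted 76.4%, all promoters 58.5%). In neither line did 4 members (3.23%, 13.7% and 33.0%), all of them ribosomal: MRPL9, MRPL23, MRPL35 and MRPS18A. The 5 with the highest smaller fold of the lines were MRPL22, MRPL40, NDUFA9, MRPL21 and MRPL46. MRPL40 rested on the most reads of these, 81 over 1 IgG read in shDPPA4 and 47 over 2 in shDPPA2+4, while MRPL21 had 26 over 1 and 7 over 0.

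In percentage points, EP300 domains exceeded the CpG-weighted share at members by more than those of the other 4 proteins in the same water-treated lines. Domains were present at 105 members in shDPPA4 water (84.7%, 77.1–90.5%, CpG-weighted 66.1%, all promoters 51.0%) and at 106 in shDPPA2+4 water (85.5%, 78.0–91.2%, 69.1% and 53.4%), an excess of 18.6 and 16.4 percentage points, whose mean of 17.5 became 11.1 with domains above a log2 fold of 2. MACS2 peaks gave 70 (56.5%, 45.2% and 35.2%) and 86 (69.4%, 55.8% and 43.2%), a mean excess of 12.4 points, which was below that of DPPA4 by the same caller (13.3 points). In domains the excess was larger among ribosomal genes. Of 78 MRP genes 71 and 70 carried EP300 (91.0% and 89.7%, CpG-weighted 66.8% and 69.9%), and of 46 NDUF genes 34 and 36 (73.9% and 78.3%, CpG-weighted 64.9% and 67.9%). MACS2 peaks kept that order in shDPPA4, with 64.1% of MRP genes (45.9%) and 43.5% of NDUF genes (44.02%), and reversed it in shDPPA2+4, with 67.9% (56.6%) and 71.7% (54.5%). The difference between the families was not tested. All 7 core subunit genes of complex I carried EP300 in both lines (CpG-weighted 63.5%), against 16 of 29 accessory genes. The CpG-weighted share for all members was 60.2%, and the share of all promoters 46.5%. MRPL40 was again among the strongest, with 78 reads over 2 IgG reads and 105 over 3, and MRPL57 had 19 over 4 and 48 over 3. NDUFA9, MRPL33 and MRPS2 ranked as high by fold, but their domains held 7 to 20 reads over 0 or 1. Among the 9 members without EP300 in either line were MRPL9, MRPL23, NDUFA4L2, NDUFA7, NDUFB1, NDUFB8 and NDUFS5. The ranking in points is bounded for DPPA4, whose CpG-weighted domain shares were 89.6% and 86.9%. A domain was absent in both lines at 0.81% of members for DPPA4 (CpG-weighted 9.82%), 3.23% for RING1B (13.7%) and 7.26% for EP300 (25.03%). Relative to the CpG-weighted share, absence was thus rarer for DPPA4 and RING1B than for EP300. For PCGF1 (55.6%, 55.02%) and MTF2 (15.3%, 15.9%) it was close to that share.

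MTF2 went the other way when the comparison was made by CpG decile. Domains were present at 94 members (75.8%, CpG-weighted 77.8%, all promoters 62.0%) in shDPPA4 and at 88 (71.0%, 77.9% and 62.6%) in shDPPA2+4, and MACS2 peaks at 64 (51.6%, 65.8% and 51.2%) and 68 (54.8%, 65.5% and 51.5%). The mean difference in domains was -4.45 percentage points, which became 1.36 when promoters were weighted by both CpG ratio and GC content (25 strata), so its direction depended on how the background was drawn. The strongest members were MRPS18A (12 reads over 0 and 18 over 0), MRPS2 (49 over 2 and 51 over 2), MRPL44 (81 over 1 and 129 over 3), MRPL40 (93 over 3 and 114 over 3) and MRPL3 (28 over 1 and 48 over 1). MRPS18A thus carried MTF2 and no RING1B domain in the water arms.

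PCGF1 was called at about a CpG-weighted share of members. Domains were present at 42 (33.9%, CpG-weighted 34.1%, all promoters 26.4%) in shDPPA4 and 41 (33.1%, 32.0% and 24.9%) in shDPPA2+4, and peaks at 9 (7.26%, 7.03% and 5.48%) and 5 (4.03%, 2.73% and 2.18%). A domain in both lines was found at 28 members (22.6%, CpG-weighted 21.2%, all promoters 16.5%). NDUFB10 had by far the most reads of the 5 strongest (122 over 5 IgG reads and 105 over 5, in domains of 2900 and 2800 bp), and MRPL41, MRPS28, NDUFB4 and MRPL17 had 8 to 21 reads over 0.

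The proteins combined at the same promoters to different degrees. RING1B and EP300 were both present in both lines at 86 members (69.4%, CpG-weighted 56.1%, all promoters 43.0%). EP300 in both lines with MTF2 in neither was found at 13 members (10.5%, 4.43% and 3.73%), including MRPL12, MRPL54, MRPS12, NDUFA13, NDUFB10 and NDUFS7, whereas the reverse was found at 3 (2.42%, 14.6% and 13.3%), which were MRPL9, NDUFAF5 and NDUFB1. All 5 proteins in both lines were found at 17 members (13.7%, 14.1% and 11.2%), 11 MRP and 6 NDUF genes.

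**Figure D3:**
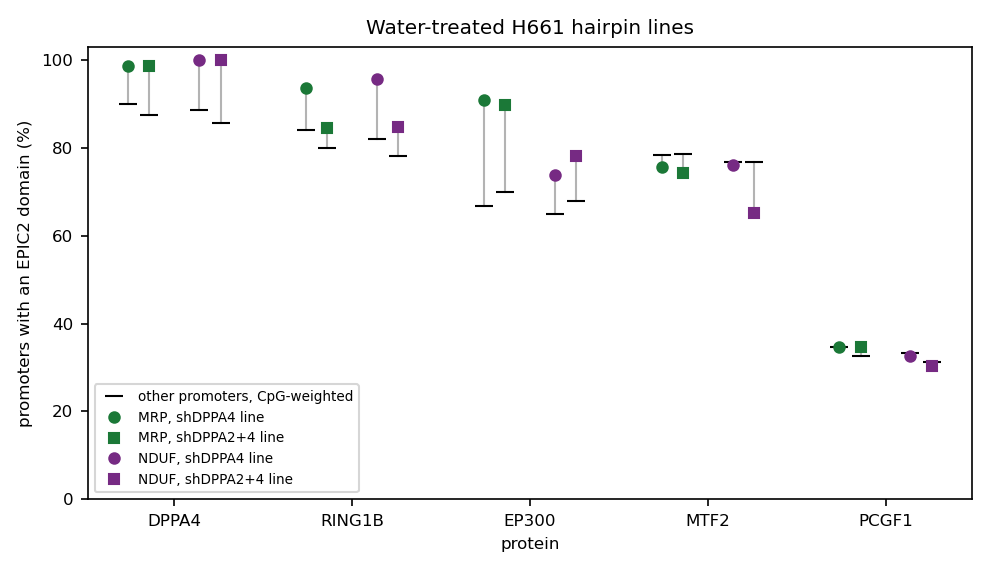
Percentage of MRP (green) and NDUF (purple) promoters with an EPIC2 domain (vertical axis) for 5 proteins in the water-treated shDPPA4 (circles) and shDPPA2+4 (squares) lines, 1 library each, with black bars for the CpG-weighted other promoters. EP300 at MRP genes lies at 91.0% and 89.7%, above bars at 66.8% and 69.9%, and DPPA4 lies near the ceiling for both families.

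Where the members were occupied, the regions were shorter than at other promoters. Among 29 libraries with at least 20 occupied members, the median EPIC2 domain was shorter at members than at CpG-weighted other promoters in 25, equal in 4 and longer in 0, and for MACS2 peaks it was shorter in 22 of 24. In water-treated cells the median DPPA4 domain covered 1600 bp in each line against 2100 bp, RING1B 700 and 600 bp against 1000 and 800 bp, and MTF2 700 and 750 bp against 1000 and 1200 bp. EP300 differed less, with 600 and 700 bp against 700 and 800 bp. Within the domains the density for DPPA4 was 96.5 reads per kb at members and 93.5 at others in shDPPA4, and 46.3 and 45.6 in shDPPA2+4. For MTF2 it was lower at members (56.1 against 60.9, and 67.6 against 77.5). For RING1B it was higher (56.7 against 50.0, and 42.7 against 39.2). The median fold was lower at members than at CpG-weighted other promoters in 27 of the 29 libraries for EPIC2 domains. For MACS2 peaks it was lower in 14 of 24. In parental H661 the DPPA2 summit lay a median of 76 bp downstream of the TSS at members (CpG-weighted median -121 bp), and the median N-terminal DPPA4 summit was at -125 bp (CpG-weighted -154 bp). Peaks covered the TSS at 39.7% of members with DPPA2 and at 54.4% with N-terminal DPPA4 (CpG-weighted 45.5% and 50.8%).

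After 7 days of doxycycline, the median DPPA4 signal was lower at the members and over all promoters. Signal was the number of reads per kb of the domains touching a promoter, for promoters with a domain in both arms, per library read. Relative library sizes came from the constant offset of the deposited log2 fold, and the IgG counts of identical domains were the same in both arms of each pair. For DPPA4 the log2 size of water over doxycycline was 0.83 in shDPPA4 and -0.95 in shDPPA2+4, so the fall in shDPPA2+4 rests on this scaling. In shDPPA4 the median log2 change was -0.30 over 111 members and -0.37 over all promoters. In shDPPA2+4 it was -0.62 over 117 members and -0.62 over all promoters. The interquartile range over members was -0.66 to 0.12 and -0.87 to -0.31. The medians of members and all promoters differed by 0.07 and 0.01, differences for which 1 library per arm gives no error.

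A fall of at least 0.5 on the log2 scale was seen at 37 members in shDPPA4 (33.3%, CpG-weighted 38.8%, all promoters 39.5%) and at 73 in shDPPA2+4 (62.4%, 59.4% and 60.6%). In both lines it was seen at 28 of 109 members with domains in all 4 arms, beside 30.1% of all such promoters. Domains were lost altogether, present with water and absent with doxycycline, at 12 of 123 members in shDPPA4 (9.76%, CpG-weighted 18.1%, all promoters 20.8%) and at 6 of 123 in shDPPA2+4 (4.88%, 8.73% and 9.75%), and gained at 0 in either. After doxycycline 111 and 117 members therefore still had a DPPA4 domain (CpG-weighted 74.0% and 79.9%, all promoters 57.7% and 62.3%), and MACS2 found a peak at 100 (67.5% and 52.5%) and 107 (74.3% and 57.4%). Covered length shrank too, from a median of 1700 to 900 bp in shDPPA4 and from 1600 to 1200 bp in shDPPA2+4 at members, and from 2400 to 1100 bp and 2200 to 1500 bp over all promoters. A shorter domain raises its own density, so the density change alone understates the loss of reads.

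NDUFS3, a core subunit, had the largest mean change. Its DPPA4 domain held 184 reads in 1100 bp with water and 45 in 1000 bp with doxycycline in shDPPA4, and 91 in 1300 bp and 88 in 1600 bp in shDPPA2+4, which per library read is -1.06 and -1.29 on the log2 scale. MRPS7, MRPL16, NDUFA12 and NDUFA4L2 followed with mean changes between -1.09 and -1.01. At the other extreme MRPL13, NDUFAF8, MRPL11 and MRPS25 had mean changes between 0.35 and 0.66, and each had a shorter domain after doxycycline in shDPPA4. MRPL13 went from 34 reads in 600 bp to 13 reads in 100 bp there, a log2 change of 2.03, and changed by -0.70 in shDPPA2+4.

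RING1B signal per library read was also lower in both lines, but this fall rests on the relative library sizes. The members' median in shDPPA4 and the median of all promoters in shDPPA2+4 equalled the log2 size of water over doxycycline (-0.36 and -0.69). Reads per kb before scaling were thus unchanged at these medians. Domains at members were longer with doxycycline (800 to 900 bp in shDPPA4, 700 to 800 bp in shDPPA2+4), and a longer domain lowers its own density. The median log2 change over members was -0.36 in shDPPA4 (112 members, all promoters -0.28) and -0.77 in shDPPA2+4 (73 members, all promoters -0.69). A fall of at least 0.5 was seen at 43 (38.4%, CpG-weighted 29.4%, all promoters 29.3%) and 55 members (75.3%, 68.8% and 69.2%), and in both lines at 20 of 71 members beside 19.5% of all promoters. The members' medians differed from those of all promoters by -0.07 and -0.08, again without an error, and the interquartile range over members was -0.69 to -0.10 and -0.96 to -0.50. When the log2 fold over IgG of the strongest domain was used in place of the density, the mean gap was 0.01, with the opposite sign.

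Loss of RING1B domains differed between the lines. In shDPPA4, 5 of 117 members lost the domain (4.27%, CpG-weighted 3.63%, all promoters 3.85%) and 4 gained one. In shDPPA2+4, 32 of 105 lost it (30.5%, 22.9% and 22.7%) and 3 gained one. This left 116 members with RING1B in shDPPA4 on doxycycline (CpG-weighted 85.0%, all promoters 66.6%) and 76 in shDPPA2+4 (64.0% and 49.3%), with MACS2 peaks at 75 (64.3% and 49.1%) and 39 (37.1% and 28.6%). The member domains were short and thinly covered, with medians of 40 and 27 reads with water, and with 1 library per arm a difference between lines cannot be told apart from one between libraries. By the offsets of the deposited folds the doxycycline library was the larger in both lines, with log2 sizes of water over doxycycline of -0.36 in shDPPA4 and -0.69 in shDPPA2+4.

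Mean RING1B falls were largest at NDUFAF6, MRPL2, MRPL13, NDUFS8 and MRPL24, between -1.11 and -0.97. NDUFAF6, an assembly factor of complex I, went from 29 reads in 700 bp to 56 in 1500 bp in shDPPA4 and from 31 in 600 bp to 23 in 900 bp in shDPPA2+4, or -0.51 and -1.71 per library read. MRPL19, NDUFA3, NDUFB4, NDUFS4 and MRPL41 changed least, with means between -0.16 and 0.25. MRPL19 alone of the 71 had a value above 0 in both lines, with 34 and 50 reads in shDPPA4 and 15 and 18 reads in shDPPA2+4 in the water and doxycycline arms.

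**Figure D4:**
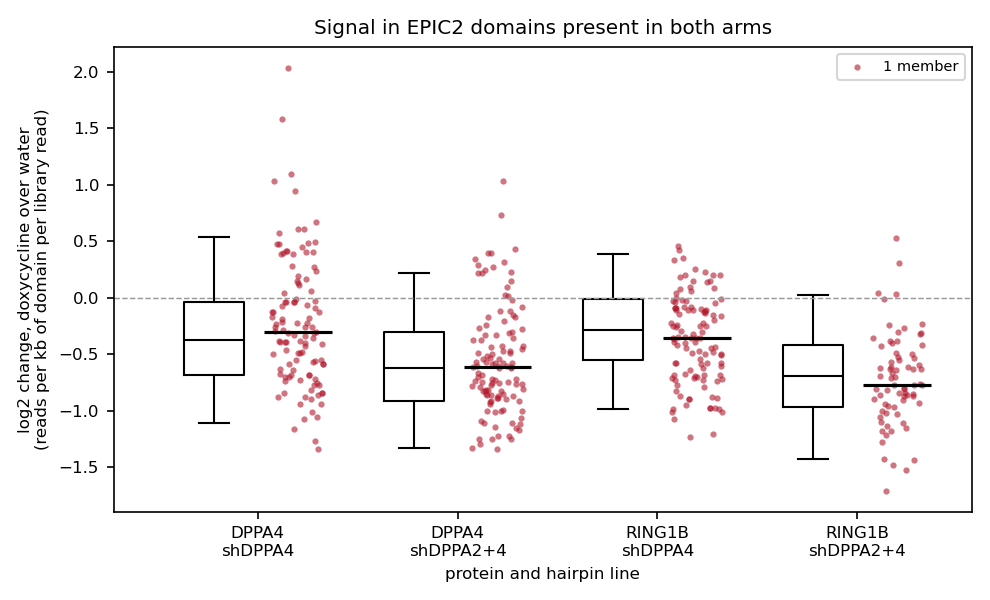
Log2 change in reads per kb of EPIC2 domain per library read, doxycycline over water (vertical axis), for DPPA4 and RING1B in each hairpin line. Boxes give the median and quartiles with whiskers to the 5th and 95th percentiles of all promoters, red points are single members and black bars their medians. Member medians are -0.30 and -0.62 for DPPA4 and -0.36 and -0.77 for RING1B, each close to the median of the box.

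The 7 core subunit genes of complex I, whose products carry its flavin and iron-sulphur clusters or the quinone site, had DPPA4 and EP300 domains in both water-treated lines without exception. The CpG-weighted shares were 89.1% and 63.5%, and 123 of the 124 members had the DPPA4 domain in both lines. In parental H661 only NDUFS8 (folds of 9.62 for DPPA2 and 8.92 for N-terminal DPPA4) and NDUFV2 (10.1 and 11.5) had both peaks. NDUFS3 and NDUFS7 had a DPPA2 peak without an N-terminal DPPA4 peak (3.96 each), NDUFS1 the reverse (5.25), and NDUFV1 neither, though ab154642 found it (5.59). NDUFV2 had the widest DPPA4 domains of the 7, of 5300 and 5700 bp with 828 and 495 reads in shDPPA4 and shDPPA2+4 water, and lost its RING1B domain of 67 reads after doxycycline in shDPPA2+4. NDUFS7 was the one core gene without MTF2 in either line.

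Other genes of oxidative phosphorylation and mitochondrial translation gave a broader view. Of 71 such genes from the lists of complexes II to V, other complex I assembly factors, other ribosomal proteins and mitochondrial tRNA synthetases, 32 (45.1%, CpG-weighted 52.5%) carried both proteins in parental H661 and 32 (45.1%, 41.8%) in H1299. EP300 was present in both water-treated lines at 60 of them (84.5%, 61.3%), beside 96 of the 124 members (77.4%, 60.2%), and RING1B at 60 (84.5%, 77.3%). By list, both proteins were found in H661 at 4 of 5 other mitoribosomal genes, 4 of 8 other assembly factors, 4 of 8 genes of complex II, 5 of 9 of complex III, 3 of 9 of complex IV, 3 of 15 of complex V and 9 of 17 tRNA synthetases. The 77 cytosolic ribosomal protein genes differed from the mitochondrial ones, with both proteins at 28 in H661 (36.4%, 54.8%), EP300 at 45 (58.4%, 63.6%) and MTF2 at 30 (39.0%, 74.9%), although DPPA4 was present in both water-treated lines at 76. Among 11 regulators of mitochondrial genes 8 carried both proteins in H661 (72.7%, CpG-weighted 53.7%). They included PPARGC1B, a coactivator (21.3-fold for DPPA2), NRF1 (8.46), TFB2M (7.02) and YY1 (5.66), whereas TFAM, the packaging factor of mitochondrial DNA, and PPARGC1A had neither peak and GABPA had DPPA2 alone.

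The members' promoters shared features that the naming rule did not use. Their median CpG observed/expected ratio was 0.764 (0.728 for all promoters) and their median GC content 57.8% (61.4%), and only 2 members lay in the lowest 3 deciles of CpG ratio. A start of another protein-coding gene lay in the window at 50 members (40.3%), beside 15.2% of all promoters and a CpG-weighted 19.3%, and at 39 members (31.5%) a gene on the opposite strand began within 1000 bp, beside 9.44% of all. A region at such a promoter cannot be assigned to one gene. At the 74 members without a second start, both proteins were found at 40 in H661 (54.1%, CpG-weighted 48.8% of promoters of that kind), and EP300 in both lines at 55 (74.3%, 55.2%). At the 50 with a second start the shares were 48.0% (58.8%) and 82.0% (78.3%).

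RefSeq gave a promoter of 300 bases for 107 members and 14622 of all promoters. The YY1 core AAGATGGCG was found, on either strand, at 18 of 107 members (16.8%), beside 2.86% of all promoters and a CpG-weighted 3.68%. The ETS core CCGGAAG, of the kind GABPA binds, was found at 34 (31.8%, 14.5% and 19.1%), 29 of them MRP genes, and the NRF1 core GCGCATGCG at 8 (7.48%, 2.77% and 3.50%). The CCAAT box, CCAAT, was found at 30 (28.0%, 36.3% and 36.7%). The ETS core ends in AAG, with which the YY1 core begins, so matches to these cores can overlap and be counted for both. A match describes letters only. Both proteins were called in H661 at 5 of 18 members with the YY1 core and at 49 of 89 without it, and at 19 of 34 with the ETS core and 35 of 73 without it. With the CCAAT box it was 11 of 30 and without it 43 of 77. With the NRF1 core it was 2 of 8 and without it 52 of 99. A lower share with the motif was thus not particular to the YY1 core, and these contrasts were not tested.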

How the data were processed

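Regions of 30 CUT&RUN libraries were analysed. According to the submitters' notes the authors trimmed reads with Trim Galore 0.6.6, aligned them to hg38 (GRCh38.p13) with BWA 0.7.13, used SAMtools 1.9 and Picard 2.6.0, and called peaks with MACS2 (version 2.27.1 as written there). EPIC2 files were made by the authors for each library with its IgG control. Deposited EPIC2 files give raw read counts of library and IgG per domain, a log2 fold after scaling to library size, a p-value and false discovery rate, and a score that repeats the fold. Deposited MACS2 files give a fold ratio over local background, −log10 p-values and q-values, and an integer score. Parental DPPA2, a mouse antibody, was called by the authors against rabbit IgG as the file labels state.

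Autosomal regions with a false discovery rate below 0.05 and a log2 fold above 1 were kept without a blacklist. MACS2 was the main caller for parental H661 and EPIC2 elsewhere. CpG ratio and GC content came from the TSS ± 500 bp, and region ends were checked against the reference's chromosome lengths. The strongest touching region gave the fold, and all touching domains gave reads and length. Where a domain had 0 IgG reads its fold rests on the caller's added count, so reads are given. Promoter calls, weighting and changes were checked on simulated data, where all 2000 simulated promoters were called as placed. Python 3.11.15 with pandas 2.3.3 and scipy 1.17.1 was used.

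Members and gene lists were chosen with earlier results of these data known. Genes were named by rule: the 10 strongest paired peaks in H661, members without a region, the 5 strongest in H1299, the 5 strongest for each other protein, members without RING1B, the 5 largest and 5 smallest changes, and the 7 core subunit genes. The values of 1 gene that the rule named are not reported here. Genes listed for combinations of proteins, for all lists of a cell line or for few H1299 domains were picked after their values were seen. The replicate numbers of H1299 paired the libraries: over promoters, the replicate 1 minus replicate 2 differences of read density correlated between antibodies with r from 0.317 to 0.528 in all 15 pairs of antibodies. Alternatives covered fold limits, callers, window, weighting and left-out replicates; a block without the Flag monoclonal antibody and a block on CpG-corrected shares were added after seeing the data.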

Additional observations from a re-analysis of the deposited data

How the results depend on the processing

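Of 82 recomputed values, 45 moved by less than the spread or interval of the value as reported, or stayed on the same side of the test's threshold. Among these, 4 values for DPPA2 with DPPA4 in H661 turned negative, between -2.85 (log2 fold limit of 2) and -2.08 (structural subunits alone). The differences below are percentage points between the members' share and the CpG-weighted share, averaged over both lines for the water arms. Without weighting, the difference was 11.6 for DPPA2 with DPPA4 in H661 (0.32 as reported), 19.2 in H1299 (10.1), 28.7 for water-arm DPPA4 (11.0), 27.0 for RING1B (8.16), 7.84 for PCGF1 (0.38), 33.1 for EP300 (17.5) and, with the opposite sign, 11.1 for MTF2 (-4.45). With 25 strata of CpG ratio and GC content it was 7.95 in H661, 13.2 in H1299, 15.9 for DPPA4, 2.16 for PCGF1 and, again with the opposite sign, 1.36 for MTF2. A log2 fold limit of 2 gave 11.1 for EP300, 2.39 for RING1B, -12.7 for MTF2 and 2.63 for PCGF1, and no fold limit gave 13.4 in H1299, 1.95 for PCGF1 and -0.88 for MTF2. MACS2 peaks gave 1.14 in H1299, 13.3 for DPPA4, 3.15 for RING1B, -12.5 for MTF2 and 12.4 for EP300. A window of ± 500 bp gave 1.88 for PCGF1 and 19.2 for EP300. Promoters without another start gave 6.05 in H1299, 13.2 for DPPA4, 3.26 for PCGF1 and 21.0 for EP300. Leaving out a replicate of H1299 gave 11.7 to 15.3. The cause of these moves was not tested.

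For the change after doxycycline, members minus all promoters averaged over both lines, the log2 fold over IgG gave -0.0317 for DPPA4 (0.04 as reported) and 0.0141 for RING1B (-0.08). For RING1B at least 20 reads in each arm gave -0.0837, a log2 fold limit of 2 gave -0.0113, a window of ± 500 bp gave -0.0416, and structural subunits alone gave -0.0736. The difference between DPPA2-directed and DPPA4-directed antibodies was -17.7 points with or without the replicate block, and the block took the exact permutation p from 0.281 to 0.005 and changed no other call. That block treats the 2 libraries of an antibody as independent. Over the means of the 6 antibodies the exact permutation p was 0.1. The difference ranged from -33.1 without replicate 1 to -2.42 without replicate 2, where the smallest exact p possible is 0.1.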
